A study of Mus musculus with 6 samples.

Results

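Depp1 and 9 other genes of the FOXO pathway were followed in ear skin of mouse pups after induced endothelial loss of Kdr, the gene of the VEGF receptor VEGFR2. The 10 genes were taken by symbol from the deposited count table of 18404 genes. They are the factor genes Foxo1 and Foxo3 and the FOXO-linked genes Depp1, Pdk4, Txnip, Irs2, Sesn1, Ddit4, Cited2 and Klf15. All 10 passed the filter on low counts, which left 14920 genes. Depp1 was chosen by its p-value in this same comparison, which was among the lowest, and the other genes were added with earlier results of these data known. The ecko against control values of the 10 genes are therefore a description, and their p-values are printed only to place them among all genes tested.

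The knockout group, labelled Vegfr2ecko and here ecko, held 3 libraries of whole ear skin at postnatal day 3, from pups with an endothelial specific knockout. The control group held 3 libraries of ear skin of the same age. Tamoxifen treatment is recorded for both groups, given from postnatal day 1 at 60 µg per day, and the series name gives an interval of 48 h. The Cre line that drives the deletion and the genotype of the controls are not given in the sources used here. Nor do these say which animals or litters the replicates came from, and the p-values reflect only how these samples vary, part of which may be technical.

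FOXO proteins are transcription factors held in check by insulin and growth factor receptors. Active PI3K and AKT kinases phosphorylate FOXO proteins, which then leave the nucleus, and their target genes are less transcribed. When the signal is low, as in fasting, FOXO proteins enter the nucleus and raise genes of fuel switching, growth arrest, autophagy and stress defence. VEGFR2 is one of the receptors that activate PI3K and AKT in endothelial cells, where FOXO1 restrains growth. Because FOXO proteins are controlled mainly after translation, their own transcript levels do not report their activity. DEPP1 is a FOXO-induced protein linked to autophagy and is expressed in vascular endothelium among other tissues. PDK4 is a mitochondrial kinase that shuts down pyruvate dehydrogenase and spares glucose in fasting muscle, fat and other tissues.

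The promoters of Depp1 and Pdk4 are shown because these are the genes of the list that lay apart between the groups, in opposite directions, and that of Txnip because it holds the FOXO core motif. Each run is the 250 bases before the RefSeq gene start in GRCm38.p6, on the strand of the gene. Capitals mark a forkhead spelling, GTAAATA for Depp1 and GTAAACA for Txnip, and the Pdk4 run has neither. The windows are chr6:116650434-116650683 on the plus strand for Depp1, chr6:5496279-5496528 on the minus strand for Pdk4 and chr3:96557707-96557956 on the plus strand for Txnip.
Depp1: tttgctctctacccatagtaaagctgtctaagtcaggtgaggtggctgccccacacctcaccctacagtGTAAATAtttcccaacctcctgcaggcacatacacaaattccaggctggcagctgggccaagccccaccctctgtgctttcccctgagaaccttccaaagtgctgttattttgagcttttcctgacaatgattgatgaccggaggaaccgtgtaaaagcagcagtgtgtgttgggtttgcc
Pdk4: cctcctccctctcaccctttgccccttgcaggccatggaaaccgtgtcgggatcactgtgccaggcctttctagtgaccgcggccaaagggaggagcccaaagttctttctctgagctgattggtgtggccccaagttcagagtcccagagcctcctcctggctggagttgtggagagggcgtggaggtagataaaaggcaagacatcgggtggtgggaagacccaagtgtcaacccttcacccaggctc
Txnip: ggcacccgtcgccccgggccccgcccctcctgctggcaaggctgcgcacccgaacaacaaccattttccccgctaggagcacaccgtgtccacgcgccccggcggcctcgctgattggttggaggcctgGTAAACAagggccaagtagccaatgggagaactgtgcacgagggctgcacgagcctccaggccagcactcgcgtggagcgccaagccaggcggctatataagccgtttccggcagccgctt

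RefSeq promoter windows were found for all 10 genes, 11 windows in all because Sesn1 has 2. Each covers 250 bases before to 50 bases after a start, and both strands were searched. The FOXO core GTAAACA occurred in 1 Sesn1 window, 22 bases after the start on the reverse strand, and in the Txnip window, 121 bases before the start. Of all 32851 promoter windows 3.65% hold it. The insulin response core CAAAACA occurred only in the Irs2 window among these 11, 37 bases before the start on the reverse strand, and 6.28% of all windows hold it. The spelling GTAAATA, searched after the sequences had been seen along with ATAAACA and ATAAATA, occurred in the Depp1 window 181 bases before the start, and 3.04% of all windows hold it. Any of the 4 forkhead spellings is held by 15.03% of all windows. The motifs differ by at least 1 base, so no match is counted under more than 1 of them. These are matches of letters, and a window with no match says nothing of more distant sequence.

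Libraries held 16987130 to 17979182 counts, with 10.1% to 10.4% of the values not whole. Kdr, the deleted gene, had 348, 431 and 370 counts in ecko and 1599, 1860 and 1337 in controls, and was the 1 gene past the edgeR threshold. Markers of endothelium, fat, skeletal muscle, macrophages, keratinocytes and fibroblasts were all detected, with none at 0 in any library. Control 3 had the lowest summed level of the 16 skeletal muscle markers, 6267 CPM (counts scaled to a common library size) against 8637 to 11160 in the other 5 libraries, and pairs with it had the highest chi-square per gene (13.24 to 19.76, against 4.181 to 11.47 in pairs without it). Ecko 3 and control 2 had 6 and 4 counts of the Y-linked gene Ddx3y, against 1445 to 1641 in the others. The libraries of each group therefore did not all come from the same animal.

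**Figure D1:**
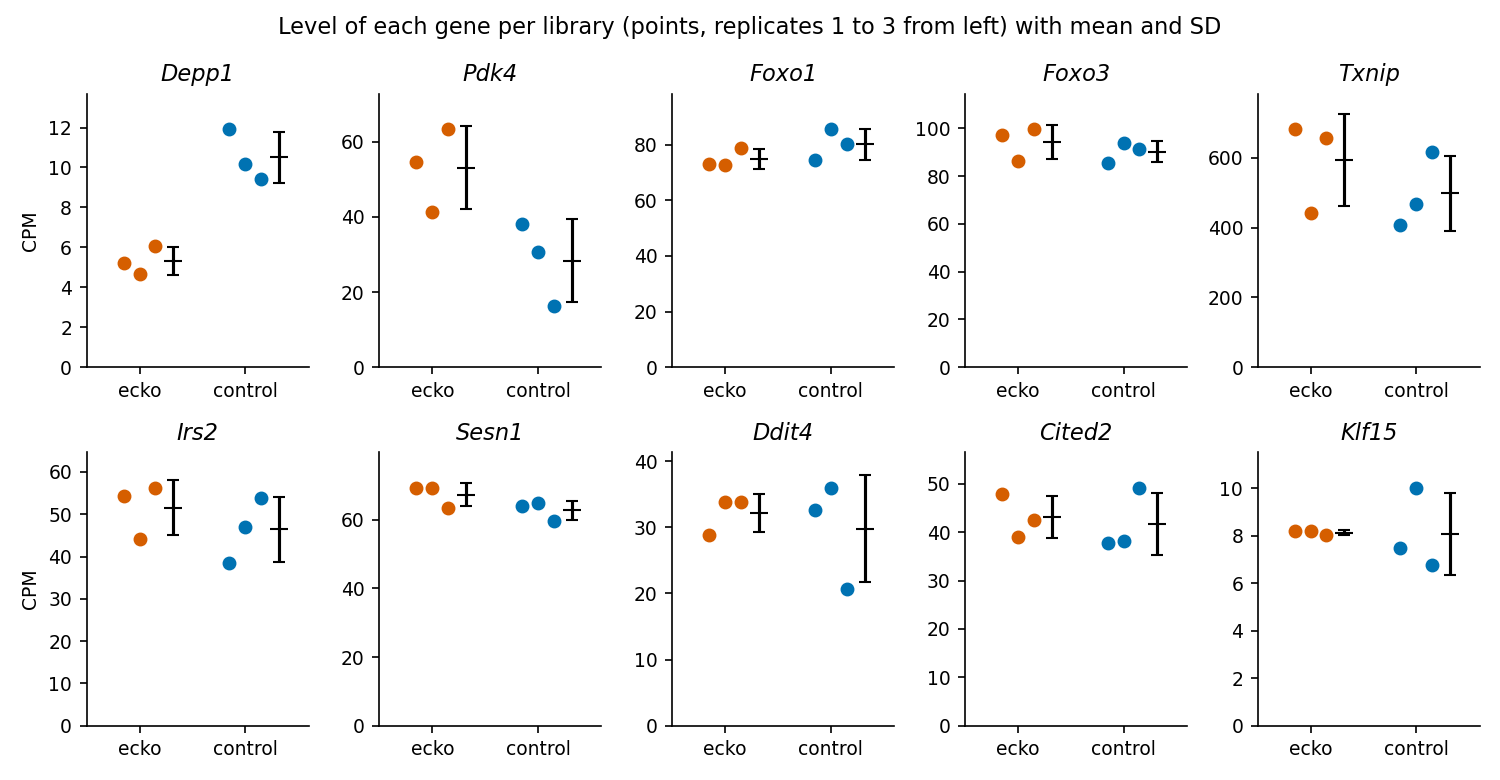
Level of each gene in CPM (the count scaled to library size) in each library, one panel per gene, with ecko on the left and control on the right. Points are single libraries, the black mark is the mean and the bar the SD (n = 3 each). Depp1 and Pdk4 are the genes whose groups do not overlap, and Depp1 is lower in ecko while Pdk4 is higher.

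Depp1 transcripts were at 50.7% of the control level. Depp1 had 94, 83 and 104 counts in ecko 1, 2 and 3, against 212, 184 and 163 counts in control 1, 2 and 3. Scaled to library size these are 5.32 ± 0.72 CPM in ecko and 10.5 ± 1.29 CPM in controls (SD, n = 3 each). The highest ecko library lay below the lowest control, with 6.08 against 9.40 CPM. The log2 fold change was -0.98 ± 0.15 (SE), and 15 of the 14920 tested genes, Depp1 included, had one at least as low. By p-value Depp1 stood at rank 5 of all genes, with an edgeR adjusted p of 0.150, and did not pass the threshold of 0.05.

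Pdk4 lay in the opposite direction, at 187% of the control level, with a wider spread. It had 981, 738 and 1083 counts in ecko 1, 2 and 3, against 679, 553 and 282 counts in control 1, 2 and 3. The means were 53.1 ± 11.1 CPM in ecko and 28.3 ± 11.1 CPM in controls (SD, n = 3 each). The lowest ecko library, at 41.4 CPM, stood just above the highest control, at 38.2 CPM. The log2 fold change was 0.90 ± 0.33 (SE), at least as high in 105 of all genes, with an edgeR adjusted p of 0.539, and Pdk4 did not pass. It was 0.63 without control 3, the library with the lowest Pdk4 and the lowest muscle marker sum.

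Depp1 and Pdk4 therefore did not move together between the groups. Within each group, however, the libraries fell in the same order for both genes. In ecko the order from high to low was 3, 1, 2, with 6.08, 5.23 and 4.65 CPM of Depp1 and 63.3, 54.6 and 41.4 CPM of Pdk4. In controls it was 1, 2, 3, with 11.9, 10.2 and 9.40 CPM of Depp1 and 38.2, 30.6 and 16.3 CPM of Pdk4. The order of Depp1 in ecko rests on small differences, 104, 94 and 83 counts. It is not particular to these genes, since Foxo1, Foxo3 and Irs2 had the same order in ecko, though not in controls. In controls the muscle marker sum also fell from replicate 1 to 3, at 11160, 9354 and 6267 CPM. The ratio of Pdk4 to Depp1 CPM was 10.4, 8.89 and 10.4 in ecko 1, 2 and 3 and 3.20, 3.01 and 1.73 in control 1, 2 and 3. The libraries fall into separate clusters by Depp1, with 3 in each, so no pooled correlation is given, and the relation within groups was not tested.

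**Figure D2:**
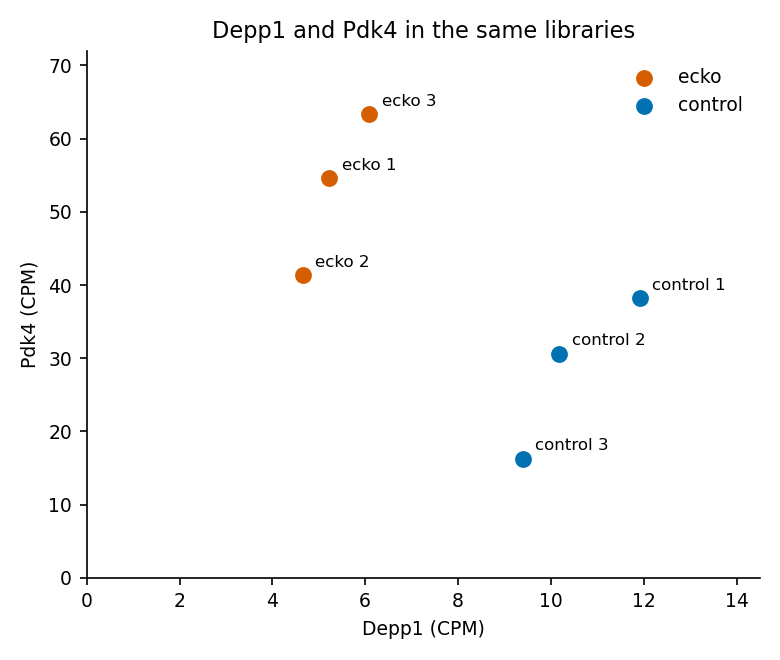
Depp1 (horizontal axis, CPM) against Pdk4 (vertical axis, CPM) in the 6 libraries, with each point labelled by group and replicate. The ecko libraries sit at the upper left, at 4.65 to 6.08 CPM of Depp1, and the controls at the lower right, at 9.40 to 11.9 CPM, and within each group a library with more Depp1 also has more Pdk4.

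Endothelial and muscle markers were set beside these genes, since the RNA is of whole skin. In such tissue RNA, fewer cells of a type and less RNA per cell cannot be told apart. The 20 pan-endothelial markers, which leave out Kdr, summed to 710 to 749 CPM in ecko and 739 to 889 CPM in controls. Their median log2 fold change was -0.16, with 15 of 20 lower in ecko, and none passed the edgeR test. Groups lay apart for 8 of the 20, all lower in ecko (40%, beside 8.11% of all genes). Per 1000 CPM of these markers there were 7.36, 6.30 and 8.12 of Depp1 in ecko, against 14.9, 11.5 and 12.7 in controls, so the Depp1 groups also lay apart on this scale. The muscle marker sum was 8637 to 10600 CPM in ecko and 6267 to 11160 CPM in controls, with a median log2 fold change of 0.04 and 14 of 16 higher. Groups lay apart for 0 of these 16, beside 15.7% of all genes. Pdk4 per 1000 CPM of muscle markers was 5.15, 4.38 and 7.33 in ecko and 3.42, 3.27 and 2.59 in controls, and again the groups did not overlap. The 16 adipocyte markers had a median of -0.18 and summed to 2490 to 3075 CPM in ecko and 2875 to 3862 CPM in controls, and 14 of 16 were lower. For 5 of the 16 the groups lay apart, all lower in ecko (31.2%, beside 8.11% of all genes). All 15 macrophage markers averaged higher in ecko, their median was 0.16, and their sums were 838 to 920 CPM in ecko and 760 to 852 CPM in controls. For 4 of the 15 the groups lay apart, all higher in ecko (26.7%, beside 7.55% of all genes). The part of these cell types in the Depp1 and Pdk4 differences was not tested.

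The factor genes differed little between the groups. Foxo1, the main FOXO gene of endothelium, had 73.0, 72.7 and 78.9 CPM in ecko 1, 2 and 3, against 74.5, 85.6 and 80.4 CPM in control 1, 2 and 3. Its log2 fold change was -0.10 ± 0.07 (SE). Foxo3, its widely expressed relative, had 97.0, 86.2 and 99.6 CPM in ecko, against 85.4, 93.8 and 91.5 CPM in controls, a log2 fold change of 0.06 ± 0.07 (SE). The groups overlapped for both genes, and neither passed, with edgeR adjusted p of 0.692 and 0.807.

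The remaining FOXO-linked genes of the list had groups that overlapped, and none passed. Txnip, which binds thioredoxin and restrains glucose uptake, had 682, 442 and 658 CPM in ecko and 409, 469 and 617 CPM in controls, so that 1 ecko library stood among the controls. Its log2 fold change was 0.25 ± 0.21 (SE). Irs2, an adaptor of the insulin receptor, had 54.2, 44.2 and 56.3 CPM in ecko and 38.4, 47.0 and 53.9 CPM in controls (0.15 ± 0.13). Both genes were lowest in replicate 2 of ecko and in replicate 1 of the controls.

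Sesn1 and Ddit4 encode inhibitors of the growth kinase complex mTORC1. Sesn1 had 69.4, 69.4 and 63.4 CPM in ecko, against 64.1, 64.8 and 59.6 CPM in controls, a log2 fold change of 0.10 ± 0.07 (SE). Ddit4 had 28.8, 33.8 and 33.8 CPM in ecko, against 32.7, 36.0 and 20.6 CPM in controls, and the low value is again control 3. Its log2 fold change was 0.11 with all libraries and -0.09 without that library.

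Cited2, a regulator that competes for the coactivators p300 and CBP, had 47.8, 39.0 and 42.5 CPM in ecko and 37.8, 38.2 and 49.2 CPM in controls, a log2 fold change of 0.05 ± 0.12 (SE). Klf15, a transcription factor of amino acid and lipid use in fasting, had 8.18, 8.19 and 8.01 CPM in ecko and 7.48, 10.0 and 6.75 CPM in controls, with means of 8.13 and 8.08 CPM. The ecko libraries were close together for Klf15 (SD 0.098 CPM) and the controls spread more widely (SD 1.72 CPM). With the adjusted p for all 10 genes between 0.150 and 0.992, 0 of 10 passed edgeR in either direction. Over all genes edgeR called 0% higher and 0.0067% lower, that is 0 genes and Kdr, while 1345 genes (9.01%) had an unadjusted p under 0.05, Depp1 and Pdk4 among them. DESeq2 called 87 genes higher (0.583%) and 26 lower (0.174%), and of the 10 genes only Depp1, with an adjusted p of 0.000384. Limma-voom, like edgeR, called 0 higher and 1 lower, with 0.227 for Depp1.

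The median log2 fold change of the 10 genes was 0.08, against -0.002 over all genes tested, and 8 of 10 had a higher mean in ecko. Groups did not overlap for 1 gene higher and 1 lower of the 10. Over all genes the groups were apart for 7.55% higher and 8.11% lower, 15.7% in both directions. Since the genes were chosen with this comparison known, nothing is read from those counts. Among the ecko libraries, replicate 2 was the lowest for 7 of the 10 genes. Among the controls, replicate 3 was the lowest for 5 (Depp1, Pdk4, Sesn1, Ddit4 and Klf15) and replicate 1 for the other 5.

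Levels were compared between genes after division by merged exon length in GENCODE vM21. Txnip was the most abundant by far, at 190 ± 42.4 CPM per kb in ecko and 159.5 ± 34.3 CPM per kb in controls (SD, n = 3 each). Ddit4, Cited2 and Sesn1 followed, at 18.3 ± 1.63, 17.6 ± 1.80 and 16.9 ± 0.86 CPM per kb in ecko and 17.0 ± 4.60, 17.0 ± 2.63 and 15.8 ± 0.70 in controls, and these 3 did not differ beyond their spread. Pdk4 stood next in ecko, at 15.1 ± 3.15 CPM per kb, with a wide SD range that overlapped those of that trio. In controls, at 8.07 ± 3.17, Pdk4 stood beside Foxo1 (9.25 ± 0.64), Depp1 (7.73 ± 0.95) and Irs2 (7.34 ± 1.23), below Foxo3 (11.9 ± 0.57). Depp1 in ecko, at 3.92 ± 0.53 CPM per kb, stood between Irs2 (8.15 ± 1.02) and Klf15 (2.91 ± 0.035), which was the lowest of the 10 in both groups, and differed from both by more than the SDs. Foxo3 (12.5 ± 0.94) and Foxo1 (8.64 ± 0.41) stood between Pdk4 and Irs2 in ecko, and Foxo1 and Irs2 did not differ beyond their spread.

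FOXO target genes outside the list were taken from a wider set of 42 genes, of which 39 were tested. In 9 of these 39 the groups did not overlap and ecko was higher (23.1%, beside 7.55% of all genes), and in 3 ecko was lower (7.69%, beside 8.11%). This set, like the other lists of genes, was chosen with earlier results of these data known, so these shares are a description. The median log2 fold change was 0.06 and 25 of 39 had a higher mean, but 0 passed edgeR in either direction. The 3 with the smallest p were Ccng2, an atypical cyclin linked to cell cycle arrest (0.41 ± 0.10, adjusted p 0.300), Bcl6, a transcriptional repressor (0.34 ± 0.09, 0.345), and Gabarapl1, an autophagosome protein (0.29 ± 0.08, 0.430). Ccng2 had 92.4, 73.5 and 80.4 CPM in ecko and 65.5, 64.6 and 55.7 CPM in controls, all ecko libraries above all controls. Beyond the named-gene rule, and picked after their values were seen, the other 6 higher genes were Fbxo32, Tnfsf10, Bbc3, Insr, Cdkn1b and Rbl2, with log2 fold changes of 0.15 to 0.70. Fbxo32 is a muscle ubiquitin ligase of wasting, Bbc3 and Tnfsf10 encode cell death proteins, and Cdkn1b and Rbl2 encode brakes on the cell cycle. Fbxo32, with the largest change (0.70), had 59.7, 41.0 and 55.1 CPM in ecko and 32.3, 40.0 and 23.6 CPM in controls. Its lowest value is that of control 3, the library with the lowest muscle marker sum. The 3 lower genes, also picked afterwards, were the endothelial nitric oxide synthase gene Nos3 (-0.35), the mitochondrial superoxide dismutase gene Sod2 (-0.22) and the cyclin gene Ccnd2 (-0.12). The set was not split into genes that FOXO proteins raise and genes that they lower. A higher or lower level of a gene in it is therefore not read as more or less FOXO activity. With 1 library left out, 9 to 18 of the 39 were apart and higher, 18 of them without control 2, and 4 to 6 were apart and lower. With fewer libraries the share of all genes that lay apart was larger too, at 10.2% to 15.1% higher (13% without control 2) and 10.4% to 15.6% lower.

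A further set of 28 tested genes held the factor genes Foxo4 and Foxo6, the insulin receptor, PI3K and AKT pathway, and other regulators of FOXO proteins such as Sirt1, Ep300, Crebbp, Stk4 and Usp7. Their median log2 fold change was -0.01, 13 had a higher mean in ecko and 15 a lower one, and none passed. Groups were apart for 4 genes higher and 5 lower in ecko (32.1%, beside 15.7% of all genes). The 3 with the smallest p were Pik3r1, the regulatory PI3K subunit gene (-0.29 ± 0.07, adjusted p 0.330), the insulin receptor gene Insr (0.24 ± 0.08, 0.482) and Pik3ca, a catalytic PI3K subunit gene (0.17 ± 0.07, 0.512). Pik3r1 had 128, 148 and 134 CPM in ecko and 166, 157 and 175 CPM in controls, and the groups of all 3 genes were apart. Insr is itself a FOXO target and stands in both sets.

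Cpt1a had the smallest p among genes of fasting and fat burning under PPAR control, with a higher mean in ecko. Of 20 tested, 13 had a higher mean in ecko and 7 a lower one, with a median of 0.05, and none passed edgeR. Groups lay apart for 2 of the 20, Cpt1a and Etfdh, both higher in ecko (10%, beside 7.55% of all genes higher in ecko and 15.7% in both directions). Cpt1a, the carrier enzyme that admits fatty acids to mitochondria, had 173, 151 and 157 CPM in ecko and 128, 121 and 125 CPM in controls, with no overlap (0.36 ± 0.07, adjusted p 0.165). Etfdh, which passes electrons from fat oxidation to the respiratory chain, had 0.12 ± 0.06 (adjusted p 0.578). With DESeq2, Cpt1a passed with an adjusted p of 0.00298 and Ccng2 with 0.0285.

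Glucocorticoids also raise Pdk4, Klf15 and Ddit4, and 18 of 19 listed glucocorticoid-induced genes were tested. In 0 of 18 did the groups lie apart, beside 15.7% of all genes, 14 had a lower mean in ecko, the median was -0.07 and 0 passed. Control 3 was the highest library for Per1, Sgk1, Klf9, Cebpd, Dusp1, Mt1, Mt2, Errfi1 and Nr3c1, all among those 14. Per1 had 103 CPM there, against 26.8 to 35.9 CPM in the other libraries. The lean to lower means in ecko thus rests in part on that library. Genes of this comparison were picked after their values were seen. The smallest p belonged to Sult1a1 (-0.30 ± 0.13), Cebpd (-0.30 ± 0.16) and Cdkn1c (-0.09 ± 0.07), with edgeR adjusted p of 0.539 to 0.727. Close relatives of the 10 genes had groups that lay apart in 0 of 23 tested, beside 15.7% of all genes, with a median of 0.003. Their smallest p belonged to Irs1 (0.22 ± 0.10), Sesn3 (-0.27 ± 0.15) and the kinase gene Pdk3 (-0.14 ± 0.08), with edgeR adjusted p of 0.569 to 0.629. Pdk4 thus lay apart while its tested relatives Pdk1, Pdk2 and Pdk3 overlapped; the difference between these kinase genes was not tested.

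**Figure D3:**
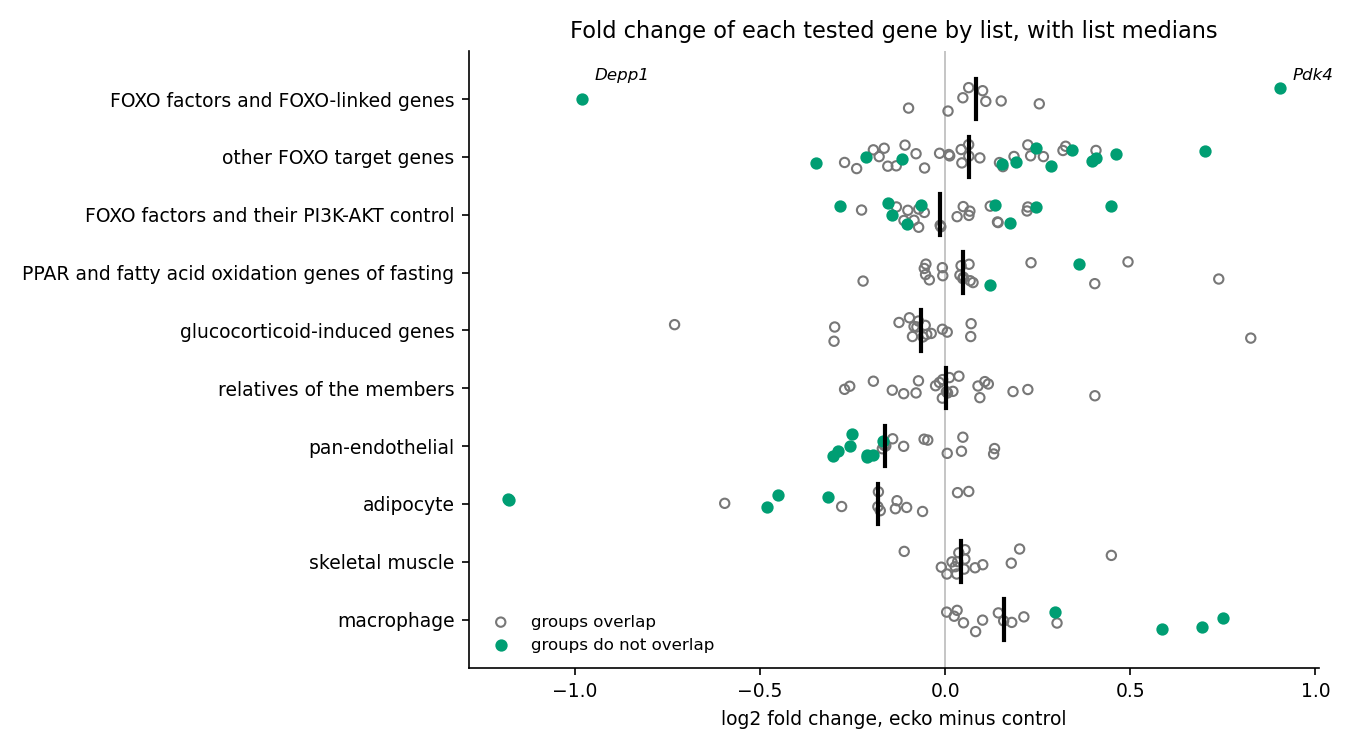
Log2 fold change, ecko minus control, of every tested gene in the FOXO list, the pathway lists and 4 marker lists, one row per list. Filled points are genes whose groups do not overlap, open points are the rest, and the black bar is the list median; Depp1 at -0.98 and Pdk4 at 0.90 lie at opposite ends of the top row, and the medians lie between -0.18 and 0.16.

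The genes whose profile over the 6 libraries was most like that of Depp1 were sought among all tested genes, by the root mean square difference of log2 CPM after centring each gene on its mean. The 5 nearest were Timp4 (0.19), Slc29a4 (0.22), Lrfn1 (0.24), Gpihbp1 (0.25) and Slc25a29 (0.25). All had lower levels in every ecko library than in any control. This follows from choosing them by likeness to Depp1 over the same libraries, so their values and p-values are a description. Timp4, a metalloproteinase inhibitor gene, had 2.50, 2.47 and 2.52 CPM in ecko and 5.40, 6.20 and 3.98 CPM in controls. Gpihbp1, the capillary anchor of lipoprotein lipase, had 12.6, 14.8 and 15.3 CPM in ecko and 21.7, 23.3 and 19.3 CPM in controls. Lrfn1 encodes a synaptic adhesion protein, Slc25a29 a mitochondrial carrier of basic amino acids and Slc29a4 a monoamine transporter. Slc29a4 rested on 8 to 16 counts in ecko and 19 to 24 in controls. None of the 5 passed edgeR, with adjusted p of 0.198 to 0.513, while with DESeq2 Gpihbp1 (adjusted p 0.0094) and Timp4 (0.022) passed. Among the other 9 FOXO genes Foxo1 was the nearest to Depp1 (0.46, rank 2418 of all genes) and Pdk4 the farthest (1.01, rank 14779). The measure includes the difference between the groups, so the place of Pdk4 largely restates its opposite direction.

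**Figure D4:**
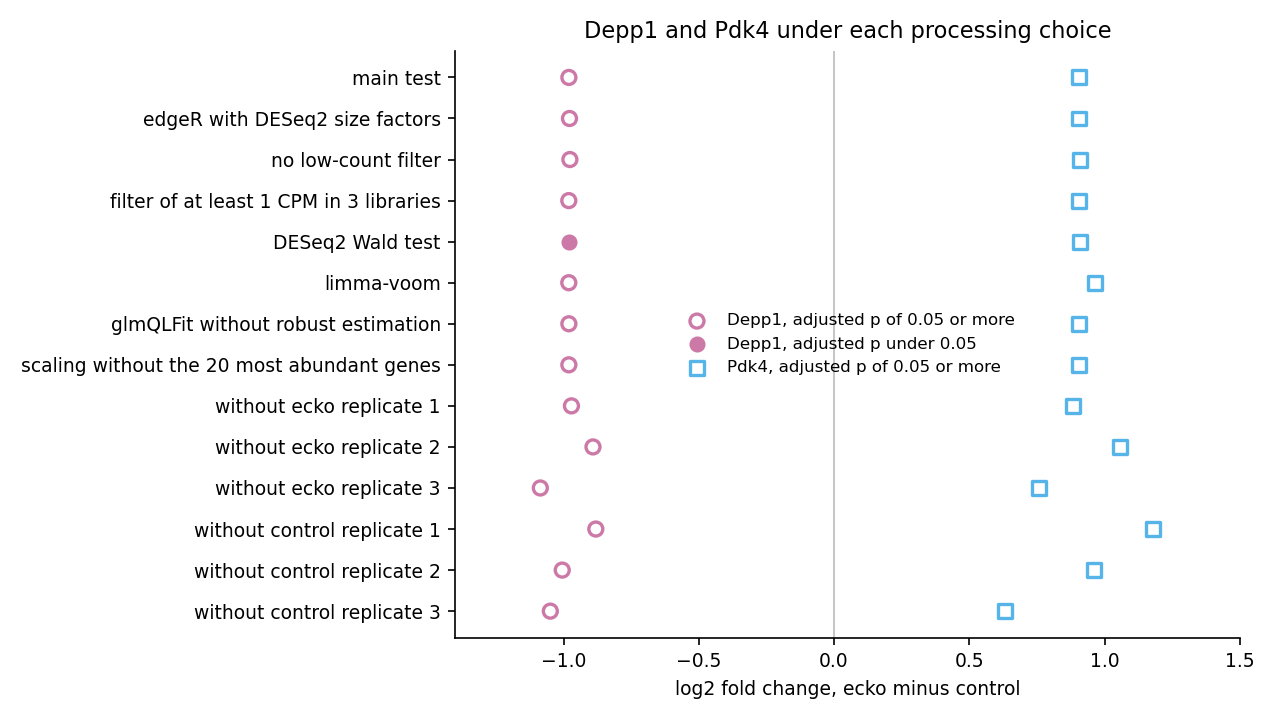
Log2 fold change of Depp1 (circles) and Pdk4 (squares), ecko minus control, under the main test and each alternative processing choice other than the replicate block, one row per choice. Filled symbols have an adjusted p under 0.05; Depp1 stays between -1.09 and -0.88 and is filled with DESeq2, and Pdk4 stays between 0.63 and 1.18 and is never filled.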

How the data were processed

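Poly(A) RNA of ear skin was sequenced in 6 libraries. The authors deposited expected counts per gene, estimated read numbers that are not scaled between libraries, as read from the values. Build GRCm38.p6 and the tools RSEM 1.3.1, HISAT2 2.2.1 and Bowtie2 2.4.5 stand in the submitters' processing notes, without roles. Annotation and strand setting are not given in the sources used here, and exons of Foxo1, Irs2 and Txnip overlap another GENCODE gene that the table does not list. Counts were rounded and tested with the quasi-likelihood test of edgeR 4.0.16 (R 4.3.3; filterByExpr with a minimum count of 10, TMM, robust), two-sided, with Benjamini-Hochberg adjustment over 14920 genes at 0.05. SE is the absolute log2 fold change over the square root of F. CPM uses TMM library sizes. An exact permutation test of 3 against 3 libraries cannot go below 0.1, so none was run. Profile likeness used log2 CPM with a prior count of 2. DESeq2 1.42.0, limma-voom (limma 3.58.1) and other settings were alternatives. The test was also run on simulated data with known changes. Genes, lists and rules were chosen with earlier results of these data known. Named genes are the 10 members, Kdr, 3 per pathway list by smallest p, and the 5 most like Depp1; 1 gene that the rule names is not reported here. Reads carry no molecular identifiers. Of 18404 identifiers 18353 matched RefSeq. The planned correlation of Depp1 with Pdk4 was left out because the libraries form separate clusters.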

Additional observations from a re-analysis of the deposited data

How the results depend on the processing

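Of 140 values of the 10 genes under 14 alternatives, 132 kept their direction and side of the threshold, 2 newly passed it and 6 changed sign. The 2 are Depp1, with DESeq2 (adjusted p 0.000384) and with the replicate block (0.0129). Its adjusted p was otherwise 0.0554 (no low-count filter) to 0.749 (without ecko 1), and its log2 fold change -1.09 to -0.88. DESeq2 called 113 genes (87 higher, 26 lower) and the replicate block 98 (88 higher, 10 lower), each with 1 of the 10 genes, Depp1. The block also called Cpt1a (adjusted p 0.0371) and Timp4 (0.0419). Leaving out 1 library gave 1 to 3 genes called, of which 0 to 2 higher (3 and 2 without ecko 3). The cause was not tested. Replicate numbers were not taken to pair the samples: deviations from group means, across genes, correlated at 0.162, -0.237 and -0.0726 for equal numbers, and not every library correlated best with its own number. With 1 library left out Ddit4 ran from -0.090 (without control 3) to 0.27, Cited2 from -0.036 to 0.19 and Klf15 from -0.10 to 0.19, none of them called. The median of the 10 genes ran from 0.03 to 0.14 with 1 library left out. Counts of other FOXO target genes with 1 library left out, and the forkhead spellings beside GTAAACA, were added after the data were seen. The alternatives planned for a correlation of Depp1 with Pdk4 were not run, since none is given. Depp1 (83 to 212 counts per library) and Klf15 (117 to 181) were the least deeply counted of the 10 genes.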
